A study of Chlamydomonas reinhardtii with 8 samples.

Results

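Glutamine synthetase joins ammonium to glutamate with the use of ATP and so makes glutamine, from which the cell draws nitrogen for its other nitrogen compounds. Together with glutamate synthase, which passes the amide nitrogen of glutamine on to a new glutamate, it is the main entry of inorganic nitrogen into organic matter in plants and green algae, where forms of the enzyme work in the cytosol and in the chloroplast. In *Chlamydomonas reinhardtii*, a unicellular green alga, the transcript models 133971 (*GLN1*), 129468 (*GLN2*) and 136895 (*GLN3*) carry this annotation. They were taken by their JGI identifiers from the study's list of genes under nitrogen starvation. The rule used no value of these arrays, but earlier results of these data were known. They are 3 of the 14557 transcript models with probes on the array. Each is covered by 3 probes with 1 spot each, so 9 of 43705 probes are described here over 8 arrays. The study based 1 of the 3 probes per transcript on an older array. It reports lower log2 ratios from such probes in differentially expressed genes and possible cross hybridization for many, and left them out of its analysis. Which of the 3 probes this is was not known for these transcripts, so all 3 are given. NCBI's annotation of assembly v5.5 keeps the identifiers as older names of CHLRE_02g113200v5 (*GLN1*), CHLRE_12g530650v5 (*GLN2*) and CHLRE_12g530600v5 (*GLN3*). The last 2 are neighbours with 0 genes between them.

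The arrays were 2-colour Agilent arrays, in which a Cy3-labeled and a Cy5-labeled RNA are hybridized together to 1 set of spots. On 6 arrays, rep1 to rep6, Cy3 carried RNA of the wild type cc3491 at T0, taken in early stationary phase in TAP medium before starvation, and Cy5 carried RNA of cc3491 starved of sulfur in TAP medium without sulfur. The titles give 24 h of starvation for all 6, whereas the sample characteristics give 24, 48, 72, 96, 24 and 48 h for rep1 to rep6. The arrays rep1 to rep4 lie on 1 slide and rep5 and rep6 on another. The 2 arrays label1 and label2 form a dye test, and for them the labels give the wild type cc125 after 24 h of sulfur starvation in both channels. No array had the dyes exchanged, so any dye effect at a probe stays in its ratio. The methods describe the 6 arrays as biological and technical replicates without saying which is which, so p-values measure only the spread between these arrays.

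The arrays differed widely in signal. On rep1 and rep2 only 2180 and 2450 probes were well above background in at least 1 channel, against 16818 to 24446 on rep3 to rep6. On label1 and label2 the numbers were 38991 and 43050. Known sulfur starvation genes were compared with the labels. The sodium/sulfate transporter *SLT1* was higher in Cy5 on rep3 to rep6, with a mean log2 ratio of 1.95 at probe 1 and 2.75 at probe 3 (SD 0.20 and 0.44, n = 4). By contrast, none of the 12 probes of the arylsulfatases *ARS1* and *ARS2* and the extracellular proteins *ECP88* and *ECP76* was well above background in Cy5 on rep5 and rep6, and on rep3 and rep4 this was met only by *ECP76* probe 1 (log2 ratio 4.45 and 3.66) and, on rep4, by *ARS2* probe 1 (-0.38). On the array labelled label2 as equal RNA, *ARS2* probe 1, with neither channel saturated, had a log2 ratio of 4.14, against 0.05 on label1. *ARS1* probe 3 and *ECP88* probe 1 were saturated in Cy5 on label2, so their ratios of 5.23 and 4.76 are lower limits, against -0.52 and -0.03 on label1. The markers of label2 therefore go against its label, and both dye-test arrays are given apart throughout.

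Saturation and low signal limited what the ratios of several probes can show. All 3 probes of *GLN2* were saturated in both channels on rep3, rep4, label1 and label2, with readings of 65528 to 65535. On rep5 and rep6 the T0 channel was again at the ceiling for all 3, while Cy5 read 21661 to 30729. Probe 1 of *GLN1* was saturated in both channels on rep3 and rep4 and in Cy3 alone on rep5 and rep6, where Cy5 read 13564 and 11569. Where both channels are at the ceiling no difference can be read, and where Cy3 alone is, the ratio is an upper limit. The other 5 probes were never saturated. *GLN1* probe 3 read 4974 to 7049 in Cy3 on rep3 to rep6, *GLN1* probe 2 read 129 to 162, and the 3 probes of *GLN3* read 95 to 169, with a local Cy3 background at *GLN3* of 17.5 to 30.

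**Figure D1:**
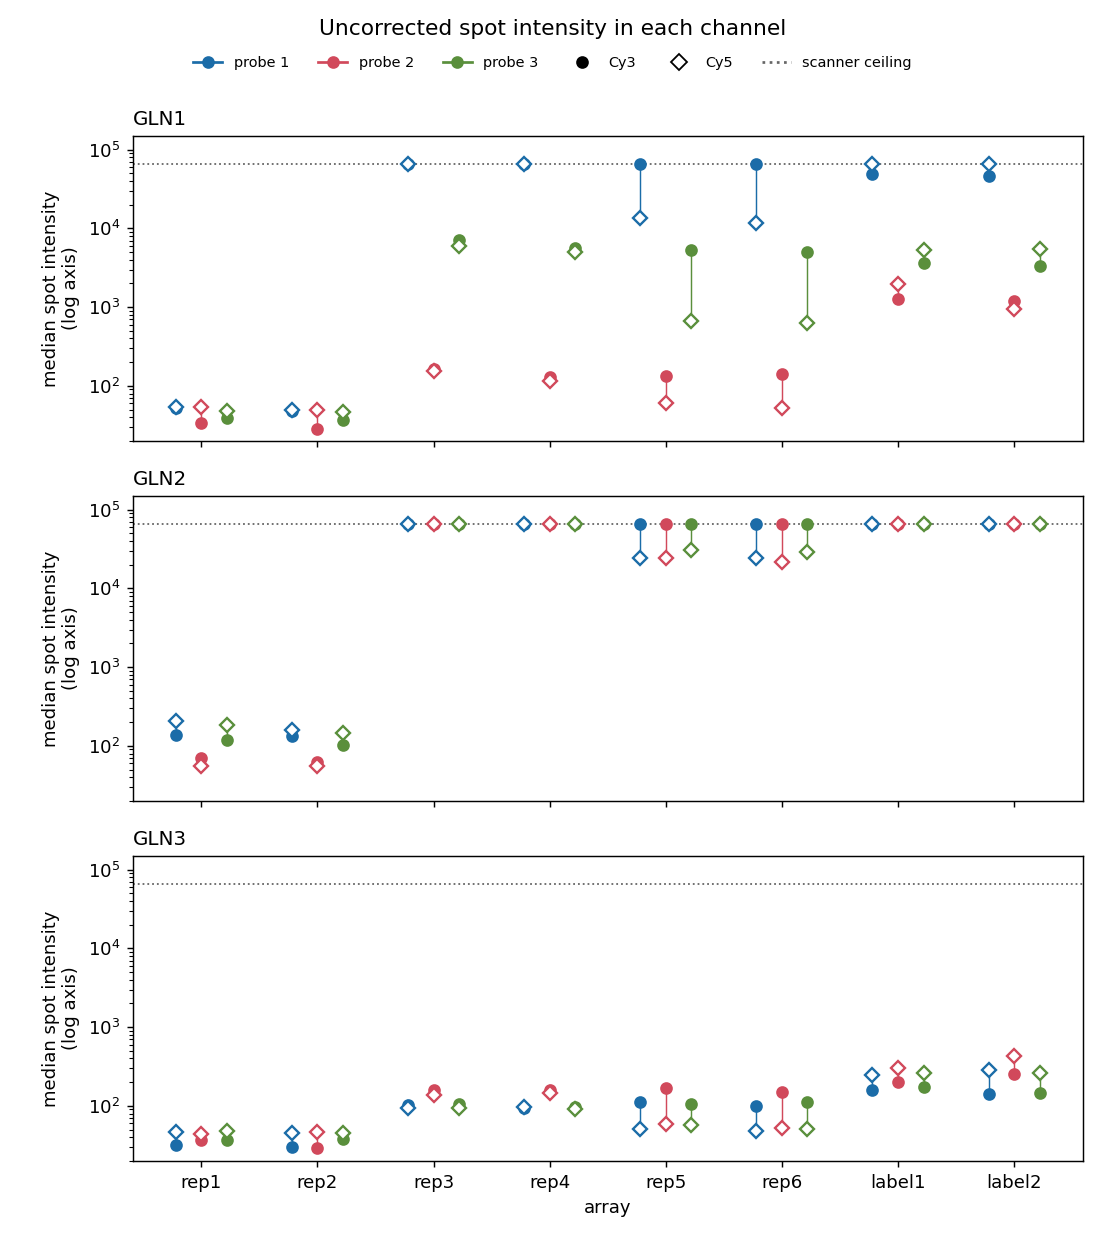
Uncorrected median spot intensity (log axis) of each glutamine synthetase probe on each of the 8 arrays, with Cy3 as filled circles and Cy5 as open diamonds. The *GLN2* probes lie at the dotted scanner ceiling in both channels on rep3, rep4, label1 and label2, and the *GLN3* probes between 48 and 169 on rep3 to rep6.

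The first comparison asked whether the 3 transcripts differed between sulfur-starved and T0 RNA over all 6 arrays. The study's methods ask for 2-fold or more together with a Holm-adjusted p under 0.05, and none of the 9 probes met this. With the Benjamini-Hochberg adjustment the number was also 0 of 9. Over all 16725 tested probes 6 were called with Holm (0.0359%) and 71 with Benjamini-Hochberg (0.425%). At an unadjusted p under 0.05, 5 of the 9 probes passed in limma's moderated test and 4 in an ordinary one-sample test, against 34.3% and 31.6% of all tested probes. The mean log2 ratio over 6 arrays ran from -1.37 (*GLN1* probe 1, SD 1.32) to 0.11 (*GLN2* probe 1, SD 0.54), and 7 of 9 means were below 0.

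The 2 arrays with little signal gave few usable values for these transcripts. On rep1 and rep2 only *GLN2* probes 1 and 3 were well above background in both channels. Probe 1 had log2 ratios of 0.39 and 0.34 and probe 3 of 0.24 and 0.48, and these 4 values are the only *GLN2* ratios of the 6 arrays with both channels above background and neither saturated. *GLN2* probe 2 was well above background in Cy3 only, with ratios of -2.83 and -1.49. *GLN1* probe 1, likewise seen in Cy3 only, had ratios of -3.28 and -2.84. The *GLN1* probes 2 and 3 and all *GLN3* probes were not well above background in either channel. The 3 *GLN2* probes thus gave opposite signs on these 2 arrays.

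**Figure D2:**
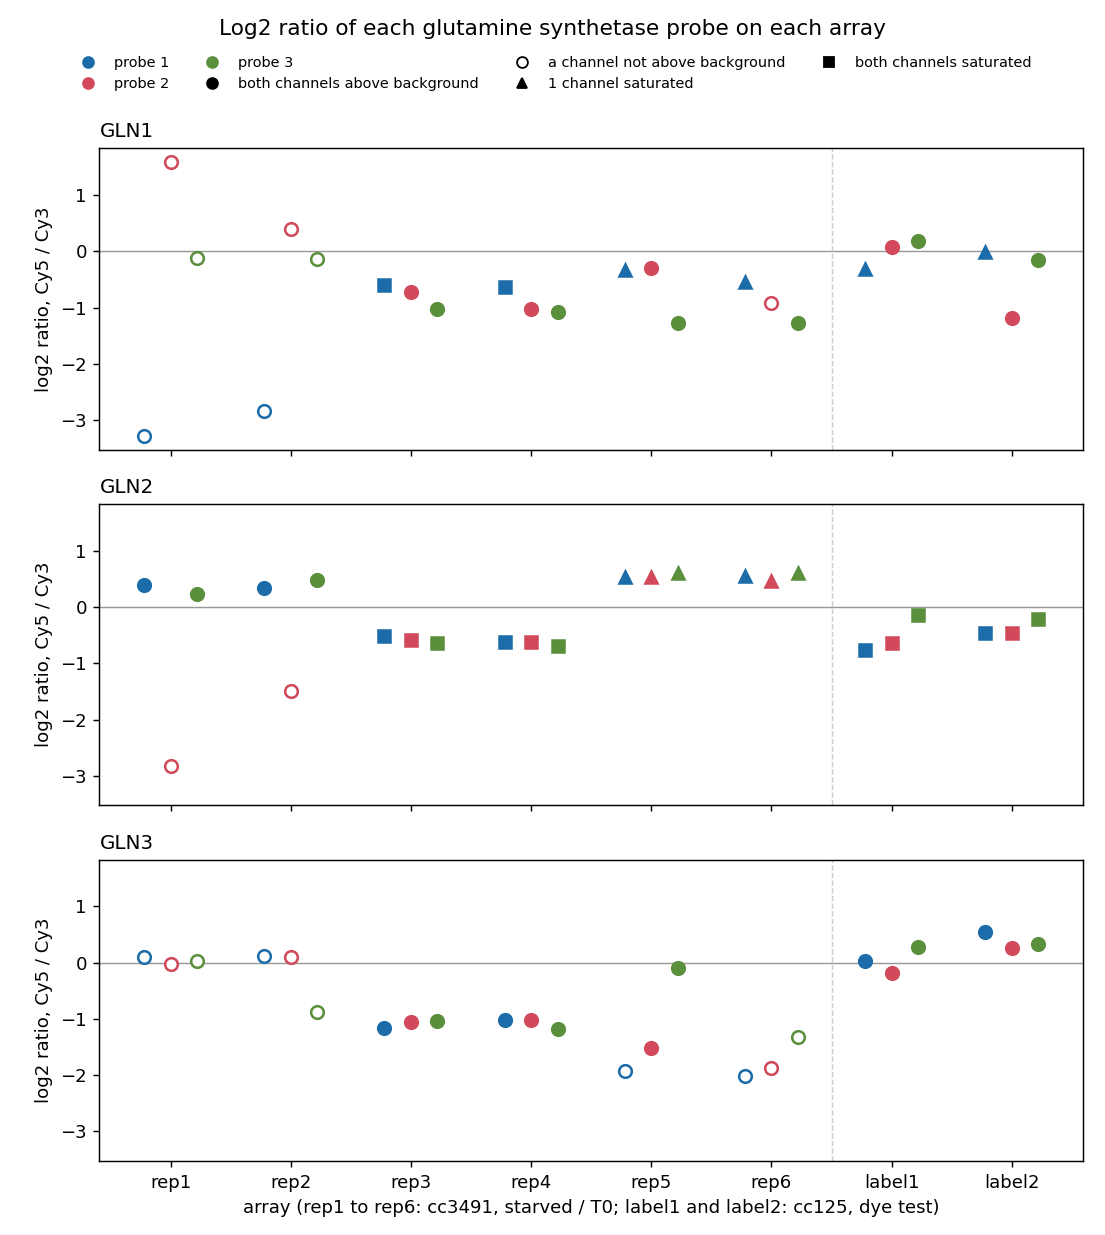
Log2 ratio of Cy5 over Cy3 after loess normalization for the 9 probes (colours) on 8 arrays. Open symbols have a channel not well above background, triangles 1 saturated and squares 2 saturated channels. The *GLN1* and *GLN3* probes lie below 0 on rep3 to rep6, and the *GLN2* probes lie below 0 on rep3 and rep4 and above 0 on rep5 and rep6.

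On the 4 arrays with signal, rep3 to rep6, the probes of *GLN1* and *GLN3* gave lower values for the sulfur-starved RNA. With the Benjamini-Hochberg adjustment and a change of at least 2-fold, 3 of 9 probes were called, all lower, namely *GLN1* probe 3 and *GLN3* probes 1 and 2. The background was 756 of 16725 tested probes called lower (4.52%). *GLN1* probe 3 had both channels well above background on all 4 arrays. The *GLN3* probes and *GLN1* probe 2 met the filter only through the T0 channel, where they were higher, so their passing adds no support to a lower level, and the filter on both channels leaves them untested. Without a minimum change, 6 of 9 probes passed, again all lower, which were the 3 probes of *GLN1* and the 3 of *GLN3*, against 25.1% of all tested probes. *GLN1* probe 1 was saturated in both channels on rep3 and rep4 and in Cy3 on rep5 and rep6, so its pass does not measure the transcript. Of these 6, *GLN3* probe 3 no longer passed with slide as a random block (adjusted p 0.101 by Benjamini-Hochberg in limma), with the ordinary test (0.0931) or without a filter (0.0811), nor without rep3, rep4 or rep6 (0.0906, 0.0927 and 0.0898). *GLN1* probe 1 no longer passed with normexp (0.0764), without background correction (0.119) or with label1 subtracted (0.0596). With Holm, 0 of 9 probes were called, against 1.51% of all tested probes in either direction. The probes of a transcript share their target and are not independent counts. RNA was isolated from whole cell pellets, so a lower level in all cells and a loss in some of the cells cannot be told apart.

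The mean ratio of *GLN1* was below 0 at each of its probes. Probe 3, the one that was bright but never saturated, had log2 ratios of -1.03, -1.07, -1.27 and -1.28 on rep3 to rep6. The 4 values lie close together, and none is above -1. Their mean of -1.16 (SD 0.13, SE 0.07, n = 4) is a 2.24-fold lower level, with an adjusted p of 0.000544 by Benjamini-Hochberg and 0.414 by Holm in limma. Probe 2 had ratios of -0.72, -1.02, -0.30 and -0.91. Its mean of -0.74 (SD 0.32, SE 0.14) did not reach 2-fold and had an adjusted p of 0.0114 by Benjamini-Hochberg in limma. Its Cy5 spot on rep6 was not well above background. Probe 2 met the filter only through the T0 channel, so this p-value adds no support to a lower level. Probe 1 had ratios of -0.60, -0.64, -0.34 and -0.54 with a mean of -0.53 (SD 0.13), of which the first 2 come from spots saturated in both channels and the last 2 are upper limits. Its size is therefore not measured here.

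The *GLN3* ratios were below 0 as well, from dim spots. Probe 1 had log2 ratios of -1.16, -1.02, -1.93 and -2.02 on rep3 to rep6. Probe 2 had -1.06, -1.02, -1.52 and -1.87. Probe 3 had -1.04, -1.18, -0.10 and -1.33. On rep3 and rep4, where all 3 probes were well above background in both channels, the 6 values stayed within -1.02 to -1.18. They spread apart on rep5 and rep6, where Cy5 was not well above background for probe 1 on both arrays and for probes 2 and 3 on rep6, so that these 4 ratios have no measured Cy5 level behind them. The means over 4 arrays were -1.53 (SD 0.52) at probe 1, -1.37 (SD 0.41) at probe 2 and -0.92 (SD 0.55) at probe 3. The adjusted p-values by Benjamini-Hochberg in limma were 0.00482, 0.00353 and 0.0277. They add no support to a lower level, because these probes met the filter only through the T0 channel.

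The sizes for *GLN3* depend on how the background is corrected. With a normexp correction of the uncorrected intensities, which adds an offset of 50, the means were -0.37, -0.49 and -0.39 for probes 1 to 3. The probes stayed below 0 on all 4 arrays, but none reached 2-fold. Their adjusted p-values by Benjamini-Hochberg in limma were 0.0185, 0.00849 and 0.0267. Since these probes met the filter only through the T0 channel, the p-values add no support to a lower level. *GLN1* probe 3 changed less, to a mean of -0.92 with all 4 values at or below -0.88 and an adjusted p of 0.00024 by Benjamini-Hochberg and 0.0328 by Holm in limma. Under normexp and with uncorrected intensities 0 of 9 probes reached the call by Benjamini-Hochberg with 2-fold. With a filter that asks for signal in both channels, *GLN1* probe 3 alone was called and the *GLN3* probes were not tested. The shares of all tested probes called in this way under these settings were not worked out.

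**Figure D3:**
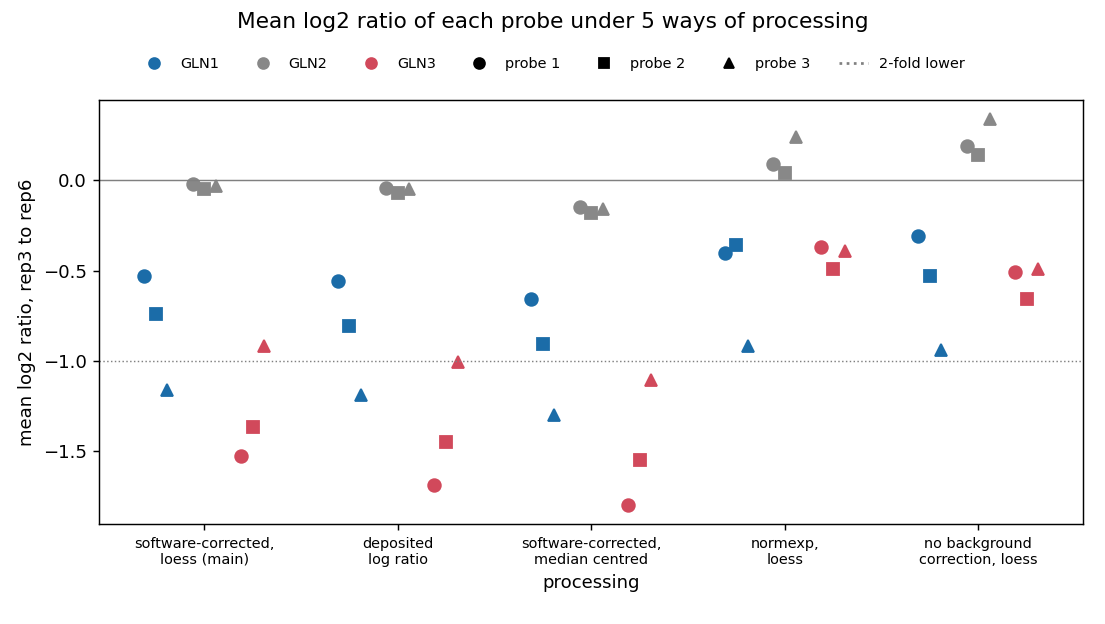
Mean log2 ratio over rep3 to rep6 of each probe (symbol) of *GLN1*, *GLN2* and *GLN3* (colour) under 5 ways of processing, with a dotted line at a 2-fold lower level. The *GLN3* means move from between -1.53 and -0.92 in the main values to between -0.49 and -0.37 with normexp, and *GLN1* probe 3 from -1.16 to -0.92.

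*GLN2* gave no usable difference between starved and T0 RNA on these 4 arrays. Probe 1 had log2 ratios of -0.52, -0.62, 0.53 and 0.55 on rep3 to rep6. Probe 2 had -0.58, -0.62, 0.54 and 0.46, and probe 3 had -0.64, -0.69, 0.61 and 0.60. The sign turned between rep3 and rep4 on the one hand and rep5 and rep6 on the other at every probe. The means were -0.02, -0.05 and -0.03 (SD 0.64, 0.64 and 0.74, n = 4), with adjusted p-values by Benjamini-Hochberg in limma of 0.964, 0.892 and 0.941. With the saturation above, such a mean near 0 does not show an unchanged transcript.

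On rep3, rep4, label1 and label2 the *GLN2* probes are themselves among the probes saturated in both channels. Lying within the range of that set was therefore given in advance and is no result. Over the 175 and 165 probes saturated in both channels on rep3 and rep4, the median log2 ratio was -0.50 and -0.57, with ranges of -0.72 to -0.05 and -0.74 to -0.16. Over the 205 and 184 probes saturated in Cy3 alone on rep5 and rep6, the median was 0.32 and 0.30. The *GLN2* probes lay above these medians, at 0.46 to 0.61. *GLN1* probe 1, also saturated in Cy3 alone there, lay below them at -0.34 and -0.54. With normexp, the 3 *GLN2* probes and *GLN1* probe 1 had the same value of -0.61 on rep3, and they shared the value -0.77 on rep4. On label1 and label2 the medians of probes saturated in both channels were -0.56 and -0.38, with ranges of -0.78 to -0.01 and -0.52 to -0.05. The *GLN2* values were -0.77, -0.64 and -0.15 on label1 and -0.46, -0.47 and -0.21 on label2. The rise between the 2 pairs of arrays thus coincides with a different set of saturated channels.

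**Figure D4:**
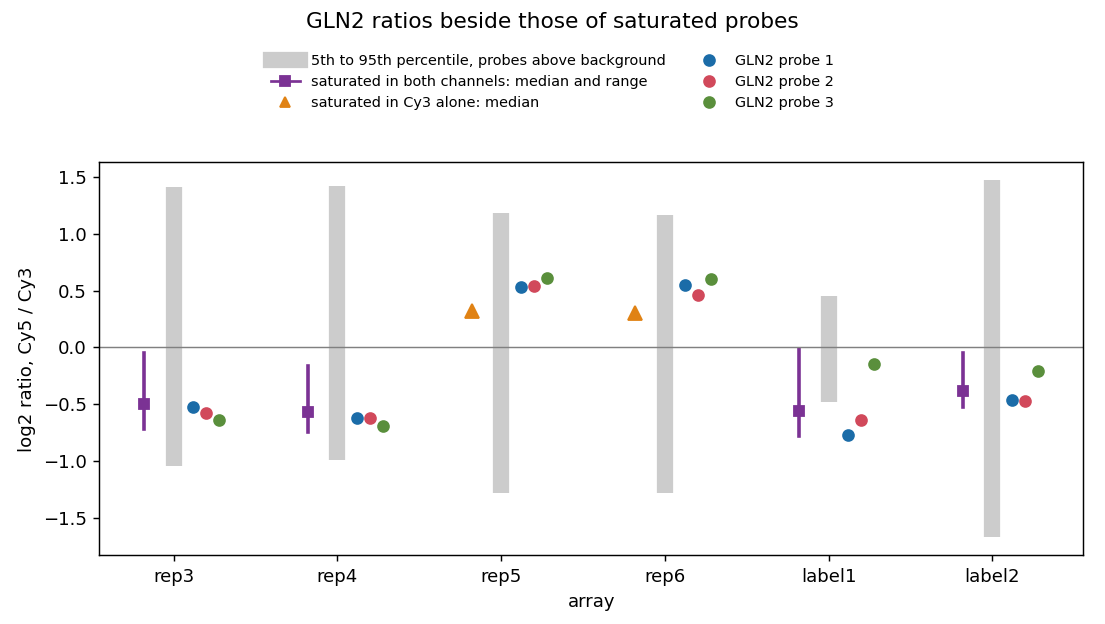
Log2 ratio of the 3 *GLN2* probes (circles) on the 6 arrays with signal, beside the median and range of all probes saturated in both channels (purple) or the median of those saturated in Cy3 alone (orange). Grey bars span the middle 90% of the probes well above background. *GLN2* lies below 0 on rep3, rep4, label1 and label2, where it is part of the purple set, and above 0 and above the orange median on rep5 and rep6.

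The values of the 2 slides were compared directly, as rep5 and rep6 minus rep3 and rep4. Slide and labelled time cannot be told apart here, since the characteristics give 72 and 96 h for rep3 and rep4 and 24 and 48 h for rep5 and rep6. None of the 9 probes had an adjusted p under 0.05 by Benjamini-Hochberg in limma, as was true for all 16725 tested probes (0%), of which 4122 had an unadjusted p under 0.05. The difference was 1.11, 1.10 and 1.27 for *GLN2* probes 1 to 3 (SE 0.07 and adjusted p 0.07 for each). For *GLN3* it was -0.88 at probe 1 (adjusted p 0.0719), -0.66 at probe 2 (0.136) and 0.40 at probe 3 (0.659). For *GLN1* it was 0.18, 0.27 and -0.22 at probes 1 to 3 (adjusted p 0.374, 0.592 and 0.172), with both slides below 0 at each probe. The *GLN3* difference turned its sign at probes 1 and 2 with normexp, to 0.25 and 0.27. For *GLN2* the adjusted p fell to between 0.0108 and 0.015 with normexp, with 1789 of all 16725 tested probes passing, and to between 0.0256 and 0.0322 with median centring, with 678 passing. With normexp, *GLN1* probe 2 (0.45, adjusted p 0.0358) and *GLN3* probe 3 (0.40, 0.0443) passed as well. With median centring, *GLN3* probe 1 did (-1.28, 0.0359). None of these was saturated, but on rep6 Cy5 was not well above background at any of them. All *GLN2* probes and *GLN1* probe 1 were saturated in both channels on rep3 and rep4 and in Cy3 on rep5 and rep6. Differences and p-values from these probes therefore do not measure their transcripts.

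Whether the 3 transcripts responded unequally was tested on the mean log2 ratio of their probes, array by array. On rep3 to rep6 the mean was -0.81 for *GLN1*, -0.03 for *GLN2* and -1.27 for *GLN3*. *GLN3* lay below *GLN1* on 4 of 4 arrays, by 0.30, 0.16, 0.55 and 0.83 (mean 0.46, SD 0.29). The *GLN3* probes met the filter only through the T0 channel. Cy5 was not well above background for *GLN3* probe 1 on rep5 and for all 3 *GLN3* probes on rep6. The gaps of 0.55 and 0.83 there thus rest partly or wholly on ratios without a measured Cy5 level. The *GLN1* mean includes its saturated probe 1 on all 4 arrays, so 4 of 4 is not a measured order. The exact two-sided sign-flip test gave p = 0.125 for each of the 3 pairs and 0.125 after Benjamini-Hochberg adjustment over them, the smallest value 4 arrays allow. Without the saturated *GLN1* probe 1, the difference between *GLN1* and *GLN3* was 0.32 (SD 0.27). With normexp its sign turned, to -0.15 (SD 0.14, below 0 on 3 of 4 arrays, exact p = 0.25), so the order of *GLN1* and *GLN3* is not settled by these arrays. The differences that include *GLN2* rest on its saturated spots.

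Over all 6 arrays no pair passed after adjustment. The difference between *GLN1* and *GLN2* was -0.60 (SD 0.61, exact p = 0.0625, 0.188 adjusted over 3 pairs), that between *GLN1* and *GLN3* 0.10 (SD 0.61, exact p = 0.688), and that between *GLN2* and *GLN3* 0.70 (SD 1.13, exact p = 0.25). From probe 1 alone, the first and the third pair reached the smallest exact p of 0.0312 (0.0469 adjusted), with differences of -1.48 and 1.10. In that setting *GLN1* minus *GLN2* was -3.67 and -3.18 on rep1 and rep2, where *GLN1* was not above background in Cy5, and -0.08 and -0.01 on rep3 and rep4, where both spots were saturated.

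In the dye test, *GLN1* and *GLN3* gave ratios near 0 on label1. Before loess, the log2 ratio of *GLN1* was 0.06 at probe 2 and 0.17 at probe 3, and that of *GLN3* was 0.02, -0.18 and 0.27 at probes 1 to 3, within the SD of 0.30 over all 38991 probes. *GLN1* probe 1, with Cy5 saturated, stood at -0.51 and the *GLN2* probes, with both channels saturated, at -0.97, -0.85 and -0.37. On label2, where the SD over 43050 probes was 0.97, *GLN1* had -0.16, -1.12 and -0.08. *GLN3* had 0.54, 0.27 and 0.33 there, all 3 above 0. The 3 probes of *GLN1* did not agree on label2, since probe 2 alone lay more than 2-fold below 0. With 1 value per probe and array these values were not tested. In uncorrected Cy3 intensity *GLN1* probe 2 read 1271.5 and 1185.5 on label1 and label2, against 129 to 162 on rep3 to rep6. Strain, slide and labelled condition differ together between these arrays and cannot be told apart.

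The probes of a transcript stood at different distances from its probe 1. Over the 14849 other probes with signal on rep3 to rep6, label1 and label2, the root mean square difference in log2 ratio from *GLN3* probe 1 had a median of 1.41. *GLN3* probe 2 stood at 0.23 and was the 4th nearest, whereas *GLN3* probe 3 stood at 0.81 and was number 970. Cy5 was not well above background for *GLN3* probe 1 on rep5 and rep6 and for *GLN3* probes 2 and 3 on rep6, so these distances rest partly on ratios without a measured Cy5 level. For *GLN2* probe 1, which was itself saturated on all 6 arrays, probe 2 was again the 4th nearest (0.07) and probe 3 was number 75 (0.28). The 3 probes nearer than *GLN2* probe 2, of models 129809, 126163 and 78109, were all saturated in both channels on rep3 and rep4. *GLN1* probe 1 also had a saturated channel on each of these 6 arrays. The other *GLN1* probes, 2 and 3, stood at 0.55 and 0.58 from it, against a median of 0.71. They were number 4194 and 4883. Distances from a saturated probe do not show whether the *GLN1* probes follow each other, and probes 2 and 3 were not compared with each other here. The nearest probes to *GLN1* probe 1 belonged to models 194214, 166151 and 190403 (0.11 to 0.12). The nearest probes of other models to *GLN3* probe 1 belonged to 189393, 195147 and 173298 (0.21 to 0.22), and none of these models has a gene name in the annotation used here.

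Other genes of nitrogen assimilation were read for comparison. The list holds the nitrate reductase *NIT1*, the nitrite reductase *NII1*, the regulator *NIT2*, the ammonium transporters *AMT1* and *AMT4*, model 188890, annotated as an NADH nitrate reductase, and a further glutamine synthetase, *GLN4*, for which no probe with its identifier was found. Of the 18 probes of the other 6 models, 7 probes of 3 models had enough signal to be tested. None of the 7 was called on rep3 to rep6 with 2-fold by Holm or Benjamini-Hochberg in limma, and without a minimum change 4 passed higher and 2 lower, against 23.9% and 25.1% of all tested probes. *NII1*, which reduces nitrite to ammonium, had means of 0.59 and 0.51 at probes 1 and 2 (SD 0.12 and 0.34, n = 4). Model 188890 had 0.74 at probe 1 and 0.79 at probe 3 (SD 0.11 and 0.13), but 0.25 at probe 2 (SD 0.78, adjusted p 0.547 by Benjamini-Hochberg in limma), where rep5 and rep6 gave -0.56 and -0.20. *NIT2*, the regulator of nitrate assimilation genes, had -0.39 and -0.56 (SD 0.19 and 0.07). The median over the 7 probes was 0.51, against -0.74 over the 9 glutamine synthetase probes and -0.01 over all tested probes. The glutamine synthetase median includes saturated probes and dim ones, so these medians do not show that the groups responded unequally.

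The ammonium transporter *AMT1* differed in signal between the slides. Its probes 1 and 2 were well above background in Cy5 on rep3 and rep4. Cy3 was not well above background at 3 of these 4 spots, and the remaining one, probe 1 on rep4, had a log2 ratio of 2.23. On rep5 and rep6 neither channel was well above background at these probes. Too few arrays had signal for *AMT1* to be tested.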

How the data were processed

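RNA was measured on 8 2-colour arrays, 6 of the replication experiment and 2 of the dye test. Groups, channels and replicate numbers come from the sample labels. The members and the gene lists were chosen with earlier results of these data known. The authors deposited Agilent Feature Extraction 10.7.3.1 output, which gives, per spot and channel, an intensity corrected for background and dye, the uncorrected median intensity, and marks for uneven, saturated or dim spots. The deposited value table holds the log10 ratio of Cy5 over Cy3 of the same files and served, times log2 of 10, as an alternative. Probes were designed on JGI 3.1 transcript models. Of the 14557 models 12302 were found in the NCBI annotation, which was used for names only. Sequences of these probes are not used here.

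Log2 ratios were formed from the corrected intensities and normalized array by array with the loess of limma 3.58.1 (R 4.3.3). Controls and spots marked uneven or outlying were dropped and saturated ones kept. Tested probes had 1 or both channels well above background on 4 or more of the 6 arrays. Means were compared with 0 by the moderated test of limma, over 6 arrays and over rep3 to rep6, with Holm adjustment over all tested probes, as the methods state, and Benjamini-Hochberg beside it. Slides were compared in limma, and transcripts by exact sign flips. Alternatives covered background correction, normalization, filter, test, slide block, dye effect, marked and saturated spots and single arrays. Named genes were all 9 probes, the 2 lists and the 3 nearest probes to probe 1 of each model. The nearest models were to be limited to those with a gene name, but the annotation gave 0 such names, so they are given by identifier. Signal over background, not read depth, limits the precision. The steps were tested on simulated data. Figures were drawn with matplotlib in Python.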

Additional observations from a re-analysis of the deposited data

How the results depend on the processing

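The means of the *GLN1* and *GLN3* probes on rep3 to rep6 were below 0 under each alternative that gave a value. None was given for *GLN1* probe 1 with saturated spots left out, or for *GLN1* probe 2 and the *GLN3* probes with both channels above background. Only *GLN1* probe 3 was unsaturated with both channels well above background on all of rep3 to rep6. *GLN1* probe 1 was saturated, and *GLN1* probe 2 and the *GLN3* probes met the filter only through the T0 channel. The signs of these probes therefore add no support to a lower level. On rep5 alone *GLN1* probe 1 was above 0 with normexp (0.10) and without background correction (0.09). The number of probes called over all 6 arrays, 6 with Holm, was 1 with normexp, 1 without background correction, 3 with median centring, 2 with the ordinary test, 18 with label1 subtracted, 71 with Benjamini-Hochberg and 1 to 9 with an array left out. Over rep3 to rep6 the number, 252, was 136 with normexp, 58 without a filter, 519 with both channels above background, 47 with the ordinary test, 123 with slide as a random block, 1532 with Benjamini-Hochberg and 18 to 30 with an array left out.

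Of the 9 glutamine synthetase probes, Benjamini-Hochberg with 2-fold called 3 on rep3 to rep6, all lower, against 4.52% of all tested probes called lower. The number became 0 with normexp, 0 without background correction and 1 with both channels above background. It was 6 without a minimum change, against 25.1% of all tested probes passing lower, and 3 to 4 with an array left out. Over 6 arrays the number was 0, against 0.425% of all tested probes. It was 1 with label1 subtracted and 0 to 2 with an array left out, the 2 without rep2. For the other settings the shares of all tested probes were not worked out, so those counts are not read as results about these transcripts. The median of the probes moved from -0.74 to -0.40 for *GLN1* with normexp, and for *GLN3* from -1.37 to -0.39 with normexp and to -0.51 without background correction.

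The *GLN2* means on rep3 to rep6 changed sign under many settings. For probes 1, 2 and 3 they were 0.09, 0.04 and 0.24 with normexp, 0.19, 0.14 and 0.34 without background correction, 0.75, 0.59 and 0.12 with label1 subtracted, 0.54, 0.50 and 0.61 on rep5 and rep6 alone, 0.15, 0.13 and 0.17 without rep3, and 0.19, 0.14 and 0.19 without rep4. With an array left out they ran from -0.20 to 0.19 at probe 1, from -0.25 to 0.14 at probe 2 and from -0.24 to 0.19 at probe 3. Over 6 arrays *GLN2* probe 3 was -0.01 with median centring and *GLN1* probe 2 was 0.01 without rep4.

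The difference between *GLN1* and *GLN3* reversed over 6 arrays to -0.39 from probe 1 alone, -0.10 with normexp and -0.05 without rep6, and it ran from -0.05 to 0.24 with an array left out. On rep3 to rep6 it reversed to -0.15 with normexp, -0.04 without background correction, and -0.22 with normexp and unsaturated probes. From probe 1 alone over 6 arrays *GLN1* minus *GLN2* was -1.48 and *GLN2* minus *GLN3* 1.10. The slides differed at 5 of 9 probes with normexp and at 4 with median centring, against 0 in the main values. Of all 16725 tested probes, 1789 passed with normexp and 678 with median centring. Among the glutamine synthetase probes, both counts include every *GLN2* probe, and these were saturated. The others were *GLN1* probe 2 and *GLN3* probe 3 with normexp and *GLN3* probe 1 with median centring. They were unsaturated, but on rep6 Cy5 was not well above background at any of them. The median of the 9 probes on label1, -0.18, was -0.15 with loess and -0.01 with normexp, and on label2, -0.16, it was -0.25 with normexp. Where not given above, the cause was not tested. The normexp settings for the transcripts' differences, the unsaturated probes and the pairs of arrays alone were chosen after seeing the data. No paired analysis was possible because each array already sets starved against T0 RNA and the dye-test arrays belong to another strain and were not tested against the others.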
